A study of Mus musculus with 6 samples.

Results

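Cryab encodes αB-crystallin, a small heat shock protein. It was examined here with the 6 other Hspb genes named with it (Hspb1, Hspb2, Hspb3, Hspb6, Hspb7 and Hspb8), the co-chaperone gene Bag3 and the transcription factor gene Hsf1. The 9 members were found by symbol among the 55401 genes of the count table. Cryab was selected on its rise in the same comparison that is described below, and the others were added as its relatives and partners, so all values of the members are a description and carry no test.

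The study addressed the gene network under miR-497 in angiosarcoma, a cancer that arises from the endothelium of vessels. ADC106 cells, a mouse angiosarcoma line labelled WT (wild type), received a microRNA mimic at a dose of 12.5 nM. The mimic was either miR-497 or NC, the study's control mimic, and RNA was taken on day 3. Poly(A)-selected libraries were made from 3 samples of each group, and both groups share the line, the medium and the dose. The line is a single cell line, and the labels do not say whether the 3 samples of a group came from separate cultures, so the spread between libraries may be technical.

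Small heat shock proteins are chaperones that do not use ATP. They assemble into large oligomers and hold unfolding proteins, among them intermediate filaments and actin-associated proteins, until the ATP-driven Hsp70 machinery refolds them or hands them to degradation. Their genes are classic targets of HSF1, the main transcription factor of the heat shock response, which binds repeats of the unit nGAAn in inverted orientation. αB-crystallin is best known from the eye lens, heart and skeletal muscle, and it is also made by tumour cells and by endothelial cells.

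The mature strand that defines miR-497 and 2 relatives are shown first, because the search for sites in the members rests on their shared seed. The sequences are RefSeq entries on GRCm38.p6, with bases 2 to 8, the seed, in capitals; the labels do not give the sequence of the mimic. mmu-miR-497a-5p lies at chr11:70234730-70234751 on the plus strand, close to mmu-miR-195a-5p, and 10 named mature mouse miRNAs in the same table carry this seed.
mmu-miR-497a-5p: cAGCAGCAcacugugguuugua
mmu-miR-195a-5p: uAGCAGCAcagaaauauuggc
mmu-miR-16-5p: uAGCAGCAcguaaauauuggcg

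A site was TGCTGCT, or GCTGCTA, in the sense strand of a transcript. None of the 9 members had one in the longest annotated 3' UTR, the region where miRNA sites act most strongly. Of the 12859 tested genes with an annotated 3' UTR, 28.1% had at least 1 site there. The 3' UTRs of most members are short: 141 bases for Cryab, 445 for Hspb1, 585 for Bag3 and 840 for Hspb8, beside a median of 1187 bases for tested genes. Hspb7 was the only member above that median, at 1253 bases.

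Outside the 3' UTR, matches to the same letters were found in Cryab, Hspb6 and Hspb3. The Cryab match lies in the 5' UTR at chr9:50753226-50753232. The Hspb6 matches are both in coding sequence, at chr7:30554290-30554296 and chr7:30554534-30554540. All 3 are printed with 11 transcript bases on each side and the matched letters in capitals, because they are the only matches in members that were detected.
Cryab 5' UTR: ccggctggagcTGCTGCTgaaggagttga
Hspb6 coding, first: gtatttttccgTGCTGCTggatgtgaagc
Hspb6 coding, second: ggtgtggacccTGCTGCTgtgacctcagc
Such matches are common in tested genes: 40.4% have at least 1 in coding sequence, 16.4% have 2 or more there, and 8.18% have 1 in the 5' UTR. A match is a description of the sequence, and whether the mimic acts on it was not tested.

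Cryab was the member with the highest level in both groups and with the largest rise. Its level in NC libraries 1 to 3 was 186, 179 and 183 CPM (reads scaled to a common library size, with library sizes scaled by TMM), and in miR-497 libraries 1 to 3 it was 969, 879 and 1042 CPM. The NC libraries lie within a narrow band and every miR-497 library lies far above them. The group means were 183 ± 3.38 and 963 ± 81.6 CPM (SD, n = 3 each), a 5.27-fold difference, which is 2.40 on the log2 scale (SE 0.0651). These values rest on 5140 to 6544 counts per NC library and 24342 to 31751 per miR-497 library. The gene spans chr9:50751325-50756636 on the plus strand (GRCm38, GENCODE M21; ENSMUSG00000032060).

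The 14661 genes that passed the filter on low counts were tested, and a gene was called when its edgeR quasi-likelihood p, adjusted by Benjamini-Hochberg over all of them, was under 0.05. Among these genes Cryab had the 50th largest log2 fold change. Among the 10334 of them with a mean log2 CPM of at least 2 it had the 3rd largest. The gain of 780.5 CPM was the 14th largest of all tested genes. Per length, as RPKM (CPM divided by the exon length in kilobases), Cryab moved from place 299 to place 37 among the 14644 tested genes with an annotated length. Cryab took 0.0180% to 0.0189% of all counts in the NC libraries and 0.0869% to 0.106% in the miR-497 libraries.

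**Figure D1:**
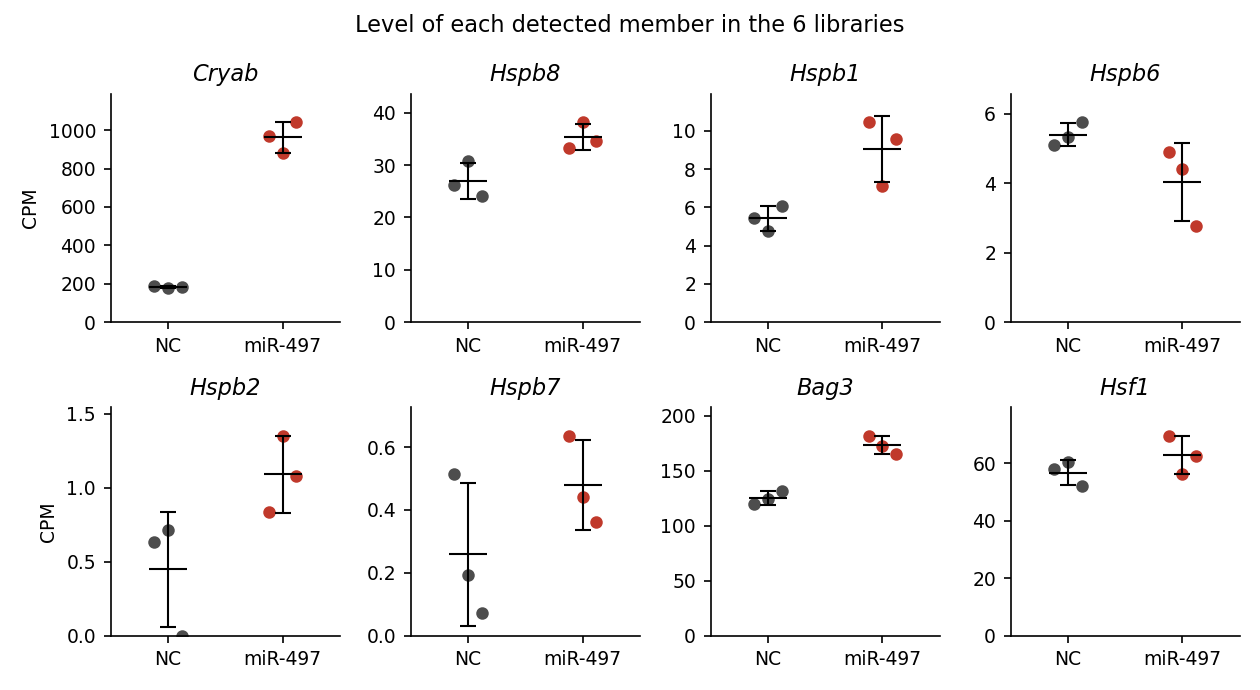
Level in CPM of the 8 detected members in each of the 6 libraries (points), with the mean and SD of each group of 3 (black), on linear axes that start at 0 and differ between panels. Cryab reaches 879 to 1042 CPM in the miR-497 libraries against 179 to 186 in NC, while Hsf1 and Hspb7 overlap between the groups.

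Hspb1 encodes Hsp27, the heat-inducible small heat shock protein most studied in tumour cells and a regulator of actin dynamics. Its level was 5.43, 4.77 and 6.07 CPM in the NC libraries and 10.5, 7.15 and 9.58 CPM in the miR-497 libraries. The lowest miR-497 library lies above the highest NC library, but the miR-497 libraries spread more. The log2 difference was 0.74 (SE 0.167), or 1.67-fold, on 171 to 180 counts per NC library and 227 to 292 per miR-497 library. The gene lies at chr5:135887919-135889563 on the plus strand.

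Hspb8 encodes the small heat shock protein that binds BAG3 and brings clients to it. Its level was 26.1, 30.8 and 24.0 CPM with NC and 33.3, 38.2 and 34.6 CPM with miR-497. The groups do not overlap, although NC library 2 comes close to miR-497 library 1. The log2 difference was 0.39 (SE 0.0907), or 1.31-fold. Hspb8 lies at chr5:116408491-116422864 on the minus strand.

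Bag3 encodes the co-chaperone that joins Hsp70 to small heat shock proteins and steers their clients to autophagy. It is itself a target of HSF1. The level of Bag3 was 119, 124 and 132 CPM in the NC libraries and 182, 172 and 165 CPM in the miR-497 libraries. All miR-497 libraries were above all NC libraries, and the log2 difference was 0.47 (SE 0.056), or 1.39-fold. Bag3 lies at chr7:128523616-128546981 on the plus strand.

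Hspb6 encodes Hsp20, known from smooth and heart muscle. It was the only tested member with a negative fold change. Its level was 5.10, 5.31 and 5.75 CPM with NC and 4.89, 4.41 and 2.76 CPM with miR-497. The miR-497 libraries all lie below the NC libraries, but libraries 1 and 2 only slightly, and library 3 is well apart from them. The log2 difference of -0.43 (SE 0.212) was not called. Among the alternatives tried it was called only when miR-497 library 1 was left out (log2 difference -0.59, edgeR adjusted p = 0.0485). Without miR-497 library 3 it was -0.21 (edgeR adjusted p = 0.403). Hspb6, at chr7:30552178-30555443 on the plus strand, shares 122 exon bases with Proser3 and 3 with Lin37, both on the opposite strand. It shares 77 more with Gm38670, a miRNA gene on the same strand that is listed at 0 in all 6 libraries. Whether strand was used in counting is not given in the sources used here, so reads in the shared bases cannot be told apart. Proser3 differed by 0.04 on the log2 scale and was not called, and Lin37 rose by 0.95 (SE 0.106, edgeR adjusted p = 1.13e-06).

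Hspb2 and Hspb7 encode small heat shock proteins of heart and skeletal muscle, and both were close to the detection limit. Hspb2 had 21, 26 and 0 counts in the NC libraries and 21, 43 and 33 in the miR-497 libraries, which is 0 to 0.712 CPM against 0.836 to 1.35 CPM. The groups do not overlap, but NC library 1 and miR-497 library 1 have the same count. The log2 difference of 1.24 (SE 0.635) was not called, and was called when no filter on low counts was used (edgeR adjusted p = 0.0281). Hspb7, at chr4:141420779-141425311, had 17, 7 and 2 counts with NC and 16, 14 and 11 with miR-497. Its groups overlap, and its log2 difference of 0.85 (SE 0.619) was not called. Hspb2, with 0 counts in NC library 3, and Hspb7 both passed the filter on low counts only through the miR-497 libraries.

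Hspb3, a muscle small heat shock protein gene at chr13:113662896-113663676, had 0 counts in all 6 libraries and was not tested. A count of 0 allows up to 3 counts per library, or 0.083 to 0.116 CPM without TMM scaling, for counting error only.

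Hsf1 encodes the transcription factor that drives the heat shock genes and is controlled mainly at the protein level. Its level was 58.0, 60.3 and 51.9 CPM with NC and 69.6, 56.3 and 62.5 CPM with miR-497. The groups overlap, with miR-497 library 2 below 2 of the NC libraries. The log2 difference was 0.15 (SE 0.0805) and was not called. Single miR-497 libraries moved it: it was 0.22 and called without library 2 (edgeR adjusted p = 0.029), and 0.07 and not called without library 1 (edgeR adjusted p = 0.537). Hsf1 lies at chr15:76477422-76501913.

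Of the 9 members, 4 were called higher with miR-497 (Cryab, Hspb1, Hspb8 and Bag3), 0 were called lower, 4 were not called and 1 was not tested. Over all tested genes 23.8% were called higher and 26.0% lower. The groups did not overlap for 6 of the 8 tested members, beside 57.4% of all tested genes. Since the members were chosen with this comparison known, nothing is read from these counts. The plot of fold changes shows how far Cryab stands from the other members.

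**Figure D2:**
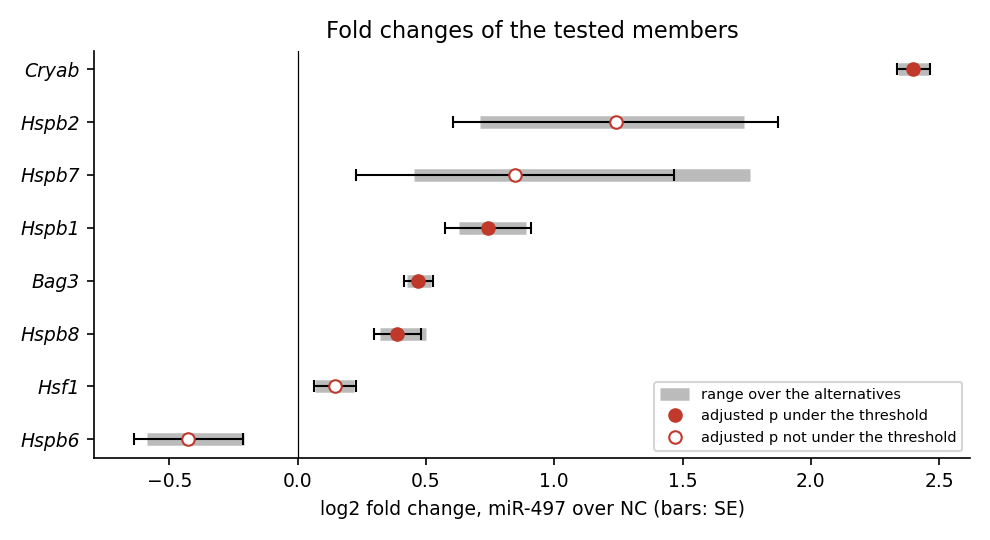
Log2 fold change of the 8 tested members, miR-497 over NC, with its SE (black bars) and the range over the alternative settings (grey). Filled points were called at an edgeR adjusted p under 0.05; Cryab stays between 2.34 and 2.46, whereas Hspb7 ranges from 0.45 to 1.76.

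Levels of different genes were compared as RPKM over the union of annotated exons. In the NC libraries the order was Cryab (mean 123 ± 2.28 RPKM), Bag3 (48.8 ± 2.45), Hspb8 (13.8 ± 1.78), Hsf1 (7.99 ± 0.607), Hspb1 (5.26 ± 0.634), Hspb6 (2.34 ± 0.145), Hspb2 (0.538 ± 0.468) and Hspb7 (0.0934 ± 0.0825; SD, n = 3 for each). Neighbours in this order did not overlap between libraries except Hspb2 and Hspb7. In the miR-497 libraries Cryab was at 651 ± 55.2 RPKM and Bag3 at 67.6 ± 3.20. There Hsf1 (8.85 ± 0.937) and Hspb1 (8.79 ± 1.67) overlapped, as did Hspb6 (1.75 ± 0.487) and Hspb2 (1.31 ± 0.311; SD, n = 3 for each). With the length of the longest transcript instead, the mean of Hsf1 was 18.1 RPKM in NC and 20.1 in miR-497. These means are above those of Hspb8, at 14.9 and 19.5, but single libraries of the genes overlap in each group.

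The small heat shock protein messages of these cells were mostly Cryab. Over the 7 small heat shock protein genes, summed CPM was 218 to 224 in the NC libraries and 930 to 1090 in the miR-497 libraries. Cryab made up 81.1% to 83.6% of that sum with NC and 94.5% to 95.6% with miR-497. Without Cryab the other 6 summed to 35.9 to 41.8 CPM against 48.4 to 51.6 CPM. That remainder is chiefly Hspb8.

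Cryab and Hspb2 are a head-to-head pair, transcribed in opposite directions from neighbouring start regions. Hspb2 lies at chr9:50751078-50752354 on the minus strand, and in the M21 annotation the gene bodies overlap by 1030 bases. Their exons share 252 bases, which is 17.0% of the exon bases of Cryab and 30.2% of those of Hspb2. The counts of Hspb2 were at most 0.397% of those of Cryab in the same NC library and 0.0863% to 0.154% with miR-497. Since the strand setting is not given, how much of the small Hspb2 signal comes from Cryab transcripts was not tested.

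The other genes around the pair were listed within 100 kb. Of 7 neighbours, Dixdc1, Alg9 and 1110032A03Rik were called higher, Ppp2r1b was called lower and Dlat was not called. Fdxacb1 was listed at 0 in all libraries. The last, 2310030G06Rik, was also called higher but is set aside for the reason given below. Over all tested genes 23.8% were called higher and 26.0% lower. The neighbour 2310030G06Rik, an uncharacterised gene whose 5' end is 4.8 kb from the start of Cryab, was at 0.213 to 0.356 CPM with NC and at 1.31 to 1.94 CPM with miR-497. The NC values rest on 6 to 13 counts per NC library, and the gene passed the filter on low counts only through the miR-497 libraries, so its call is not read as a result. Its log2 difference was 2.44 (SE 0.425). Dixdc1, which encodes a Wnt pathway protein, was at 8.42 to 8.76 CPM and rose to 18.8 to 21.1 CPM (log2 difference 1.20, SE 0.101, edgeR adjusted p = 4.58e-08), and its 3' UTR has 2 miR-497 sites.

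Farther out, 1110032A03Rik rose by 0.72 and Alg9, a mannosyltransferase gene of N-glycosylation, by 0.51 on the log2 scale. Dlat, which encodes a pyruvate dehydrogenase subunit and starts 91.5 kb away, differed by -0.01 and was not called. Ppp2r1b, a scaffold subunit gene of protein phosphatase 2A on the other side, fell by 0.46 (edgeR adjusted p = 1.63e-05). With 2310030G06Rik left aside, the nearer tested neighbours Dixdc1, Alg9 and 1110032A03Rik were called higher. The 2 most distant, Dlat and Ppp2r1b, were not. Nothing is read from this order of so few genes, and whether the region responds as a unit was not tested.

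**Figure D3:**
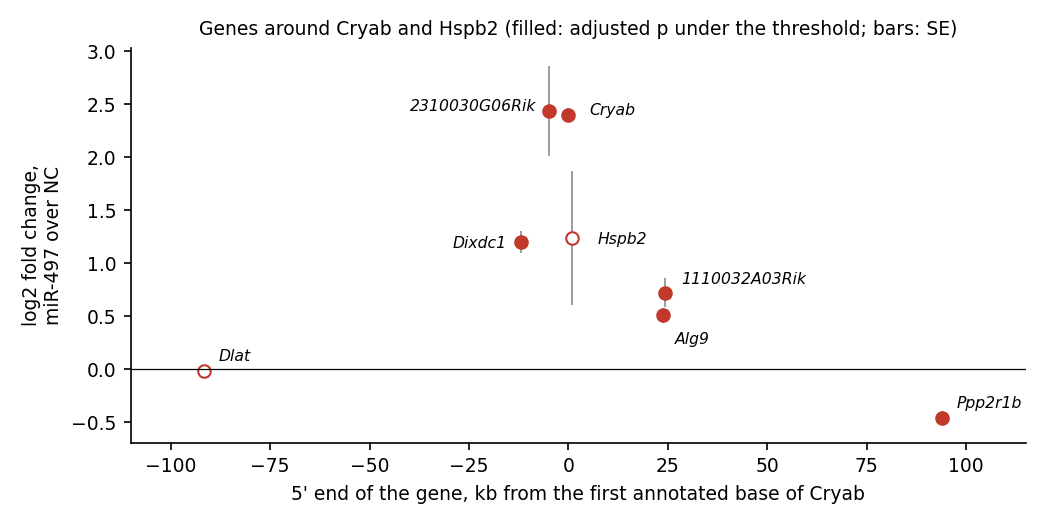
Log2 fold change (with SE) of the tested genes around Cryab against the distance in kb of each gene's 5' end from the first annotated base of Cryab; filled points were called at an edgeR adjusted p under 0.05. Cryab is at 2.40, and Dlat and Ppp2r1b at the edges are at -0.01 and -0.46. The gene 2310030G06Rik, at 2.44, passed the filter on low counts only through the miR-497 libraries, so its point is not read as a result.

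The promoters of 6 members are in the RefSeq table (GRCm38.p6), as 7 windows from 250 bases before to 50 after the start. They were searched on both strands for the minimal inverted pairs of the HSF1 unit, GAANNTTC and TTCNNGAA, and for the triplets GAANNTTCNNGAA and TTCNNGAANNTTC. The pair GAANNTTC occurred in 5 of the 7 windows, those of Hspb1, Hspb8, Bag3, Hspb3 and 1 of the 2 of Hspb6, and in none of Hspb7. Of all 32851 windows in the table, 7.86% hold it. TTCNNGAA, in 8.52% of all windows, and the triplets, in 0.310% and 0.320%, occurred in none of the 7. Cryab, Hspb2 and Hsf1 have no window in this table and were not searched. Counted from the start, the matches begin at -117 and -97 in Hspb1 and at -120 in Hspb6. Those of Hspb8 and Bag3 begin at 3 and 43, after the start, in transcribed sequence. For Hspb1, Hspb8 and Bag3, which were called, the windows are printed around the match with the motif in capitals. That of Hspb6 is printed for comparison.
Hspb1, chr5:135887791-135887820 plus strand: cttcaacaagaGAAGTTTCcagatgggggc
Hspb1, chr5:135887811-135887840 plus strand: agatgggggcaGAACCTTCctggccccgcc
Hspb8, chr5:116422844-116422873 minus strand: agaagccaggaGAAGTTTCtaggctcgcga
Bag3, chr7:128523603-128523632 plus strand: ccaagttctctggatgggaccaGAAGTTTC
Hspb6, chr7:30553170-30553199 plus strand: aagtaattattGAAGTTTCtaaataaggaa
The same 8 letters, GAAGTTTC, stand in 4 of the 7 windows, against 1.21% of all windows; these letters were noted after the matches had been read. Members with the letters include Hspb6, which was not called, and Hspb3 with another GAANNTTC match was not detected. Heat shock genes are known to carry such repeats, and binding of HSF1 was not measured here.

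Other heat-inducible chaperone genes were listed with earlier results of these data known, so nothing is read from their counts or median. Of 21 heat-inducible cytosolic chaperone and co-chaperone genes, 4 were higher, 5 were lower and 12 were not called, beside 23.8% higher and 26.0% lower among all tested genes. Both the list and all tested genes had a median log2 difference of -0.02, to 2 decimals. Their summed level was 12260 to 13086 CPM in the NC libraries and 11311 to 12756 CPM in the miR-497 libraries, which overlap. Hspa1a, an Hsp70 gene induced strongly by heat, was at 1.90 to 2.82 CPM with NC and 1.38 to 2.08 CPM with miR-497. Hspa1b differed by -0.16 and Dnajb1, an Hsp40 gene, by 0.04 on the log2 scale. These 3 genes were not called and were named after their values were seen, as well-known heat-induced genes. Others of the list were called: Hsp90aa1 (-0.20 on the log2 scale) was lower, and Dnaja1 (0.20) and Serpinh1 (0.23) were higher.

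Of the called chaperone genes, Hsph1, an Hsp110 nucleotide exchange factor for Hsp70, fell most. It was at 471 to 522 CPM with NC and at 310 to 332 CPM with miR-497 (log2 difference -0.62, SE 0.0567, edgeR adjusted p = 1.2e-07). Chordc1 (-0.44), Stip1 (-0.35) and Cdc37 (-0.34), all co-chaperones of Hsp90, also fell. Ubb, a polyubiquitin gene, and St13, an Hsp70 co-chaperone, rose by 0.33 and 0.26 on the log2 scale. A 3' UTR site for miR-497 was present in 3 of the 5 lower genes, 0 of the 4 higher genes and 2 of the 12 not called. Over the tested genes with an annotated 3' UTR the share was 28.1%. The 3 lower genes with a site are Hsph1, Chordc1 and Cdc37, with 3' UTRs of 963, 4521 and 6586 bases. The median of tested genes is 1187 bases. Whether the mimic acts on these sites was not tested.

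Among the 6 mitochondrial chaperone genes 0 were higher, 2 were lower and 4 were not called. The shares over all tested genes were 23.8% higher and 26.0% lower. Hspa9, the mitochondrial Hsp70, was at 863 to 948 CPM with NC and fell to 534 to 607 CPM (log2 difference -0.66, SE 0.0607, edgeR adjusted p = 1.22e-07). Hspd1, the Hsp60 gene, fell by 0.30. The list median was -0.10. Neither gene has a 3' UTR site.

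Of the 4 genes for heat shock factors and their binding protein, 2 were higher and 2 were not called. Over all tested genes 23.8% were called higher and 26.0% lower. Hsf2, a factor that forms complexes with HSF1, was at 18.4 to 20.0 CPM with NC and rose to 24.8 to 30.3 CPM (log2 difference 0.56, SE 0.0903, edgeR adjusted p = 6.7e-05). Hsbp1, which encodes a protein that binds heat shock factors and restrains HSF1, rose by 0.41. Hsf4 (0.53, SE 0.343) and Hsf5 (0.01, SE 0.594), both at 1.74 CPM or less in every library, were not called. Of the other small heat shock protein genes, Cryaa, the lens partner of Cryab, was listed at 0 in every library. Hspb11, whose product works in intraflagellar transport, rose by 0.77 (SE 0.195, edgeR adjusted p = 0.00318), and Hspb9 (0.31, SE 0.505) was not called. Odf1, a sperm tail gene, had 1, 0 and 0 counts with NC and 7, 5 and 3 with miR-497 and was not tested.

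BAG3 and HSPB8 act with the ubiquitin ligase CHIP and with autophagy receptors in chaperone-assisted selective autophagy. Of 10 listed partner genes 9 were tested: 7 were higher, 1 was lower and 1 was not called, beside 23.8% higher and 26.0% lower among all tested genes. The list median was 0.50 on the log2 scale, and that of all tested genes was -0.02. Since the list was chosen with earlier results of these data known, nothing is read from these counts or medians. Stub1, which encodes CHIP, was the lower one. It was at 79.8 to 82.6 CPM with NC and fell to 36.1 to 39.6 CPM with miR-497 (log2 difference -1.12, SE 0.0644, edgeR adjusted p = 4.79e-10), and its 3' UTR has 2 miR-497 sites. Sites were not limited to it: Sqstm1 and Nbr1, both higher, and Synpo2, not called, have 1 each.

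The partners that rose include the receptor Sqstm1 (p62), at 1417 to 1545 CPM with NC and 2060 to 2182 CPM with miR-497 (log2 difference 0.50, edgeR adjusted p = 1.9e-06). The receptor Optn rose by 0.56. The autophagosome proteins encoded by Gabarapl1 and Map1lc3a rose by 0.69 and 0.92, and Hspa2, an Hsp70 gene, by 0.98. Map1lc3b was listed at 0 in all 6 libraries. In the same samples Bag3 and Hspb8 were higher, as given above, while the CHIP gene was lower.

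Of the 5 other Bag genes, Bag1 (0.35), Bag2 (0.30) and Bag6 (0.22) were higher, Bag5 (-0.36) was lower and Bag4 (-0.39, SE 0.164) was not called. The shares over all tested genes were 23.8% higher and 26.0% lower. Bag5 and Bag4 have 1 and 2 sites in the 3' UTR, and the 3 that rose have none. Of tested genes with an annotated 3' UTR, 28.1% have at least 1 site. Whether the mimic acts on the sites in Bag genes was not tested. The list median was 0.22.

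Of 10 genes for intermediate filaments and actin crosslinkers that small heat shock proteins are known to protect, 9 were tested. Of these 2 were higher, among them Flna (0.57), 2 were lower, Flnc (-0.24) and Actn1 (-0.22), and 5 were not called. Over all tested genes 23.8% were called higher and 26.0% lower. Flnc encodes the filamin that BAG3 is known to clear in muscle. Vim, the main intermediate filament gene of these cells at 2941 to 3561 CPM, differed by -0.11 and was not called. Des, the muscle filament gene linked with Cryab in muscle disease, was at 0.573 CPM or less in every library, and Synm was listed at 0. The median was -0.14.

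**Figure D4:**
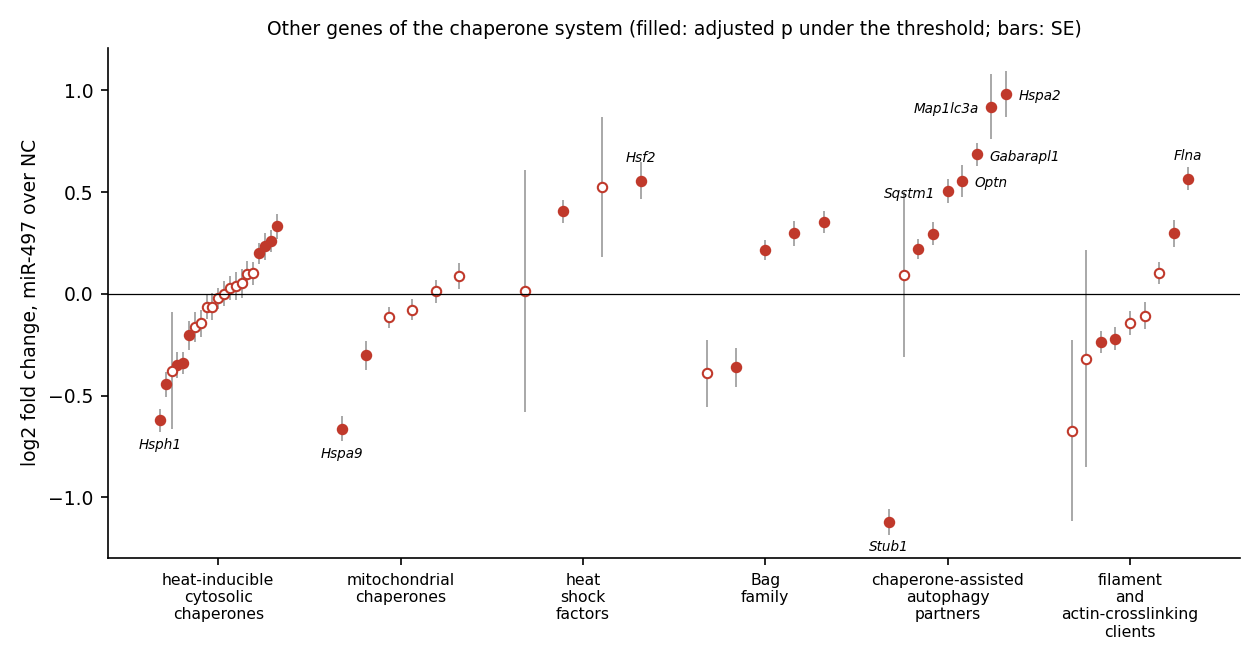
Log2 fold change, miR-497 over NC, with SE, of each tested gene in 6 lists of other chaperone system genes; filled points were called at an edgeR adjusted p under 0.05 and called genes past 0.5 in either direction are named. Stub1 lies at -1.12, below its list, of which 7 others are called higher. The heat-inducible chaperones run from -0.62 (Hsph1) to 0.33 (Ubb).

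The genes whose pattern over the 6 libraries was most like that of Cryab were ranked by the root mean square difference of centred log2 CPM. Among 10328 candidates the nearest were Mras (0.0994), Rnase4 (0.122), AC132253.9 (0.155), Cd24a (0.182) and Cemip (0.202). Mras, a RAS-family GTPase gene, was at 2.19 to 2.59 CPM with NC and 13.6 to 14.5 CPM with miR-497. Rnase4, a ribonuclease gene, was at 8.68 to 10.6 CPM and 39.3 to 48.4 CPM. Cemip, which encodes a hyaluronan-degrading protein, was at 22.5 to 23.4 CPM and 145 to 168 CPM. The members were left out of this ranking, so they could not appear in it. No other heat shock gene is among the 5. These values are a description of how alike the 6 values are, since the libraries share 1 contrast.

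The libraries held 25777676 to 36159499 counts. Those of 1 group differed from each other by more than counting error (chi-square per degree of freedom 7.64 to 11.8), and much less than from the other group (92.0 to 112). Mitochondrially encoded genes took 2.03% to 2.15% of counts with NC and 2.94% to 3.77% with miR-497. The labelled cell type was checked with endothelial markers, and all 12 were detected. Their summed level was 9969 to 10679 CPM with NC and 9647 to 10141 CPM with miR-497. Of these markers 7 were higher and 4 lower, beside 23.8% higher and 26.0% lower among all tested genes.

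Markers of other cells that make small heat shock proteins were mostly low. Of 12 striated muscle genes 2 passed the filter, Myod1, Myog, Myf5, Acta1 and Actc1 were at 0, and the sum was 22.1 to 24.6 against 17.0 to 17.4 CPM. Of 8 lens genes 1 passed, Cryaa, Cryba1, Crybb2 and Crygs were at 0, and the sum was 0.513 to 1.53 against 0.818 to 1.61 CPM. Summed levels of 3 further lists did not overlap between the groups. The sum of 8 fibroblast genes, of which Lum was at 0, was 260 to 277 CPM with NC and 420 to 497 with miR-497. Of the 6 tested, 2 were higher, Col1a1 (0.84) and Col1a2 (1.15), 1 was lower, Col3a1 (-0.79), and 3 were not called. The sum of 8 leukocyte genes was 9.53 to 10.7 against 15.8 to 21.1 CPM. Of the 3 tested, 1 was higher, Cd68 (1.08), and 2 were not called, with Cd3e and Itgam among those at 0. The 10 smooth muscle and pericyte genes summed to 1192 to 1208 against 981 to 1024 CPM, of which Mcam was 1079 to 1091 and 856 to 887 CPM. Acta2 (0.92) and Tagln (1.01) were higher, Notch3 (-1.37), Pdgfrb (-0.37) and Mcam (-0.31) were lower, and 5 were not called. The shares over all tested genes were 23.8% higher and 26.0% lower. What part the cells with these markers have in the values of Cryab was not tested. In bulk RNA a change in the number of cells that express a gene and a change in RNA per cell cannot be told apart.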

How the data were processed

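The deposited table gives raw read counts, which the authors left unnormalized, for 55401 mouse Ensembl identifiers in 6 libraries (3 NC, 3 miR-497; 25777676 to 36159499 counts). STAR 2.5.4b, featureCounts of Subread 1.6.1, edgeR 3.32.1 and GRCm38 are named in the submitters' processing notes; strand setting and the handling of multi-mapping reads are not given in the sources used here. Groups and replicate numbers came from the sample titles.

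Symbols, exon lengths, coordinates and UTRs came from GENCODE M21 (GRCm38), which matched 55141 identifiers. Genes were filtered with filterByExpr (minimum count 10, minimum total 15), scaled by TMM and tested 2-sided with edgeR 4.0.16 (quasi-likelihood F-test, group as the only term) in R 4.3.3, with Benjamini-Hochberg adjustment over 14661 genes and a threshold of 0.05. Each SE was the absolute log2 fold change over √F. Log2 CPM for likeness used a prior count of 2. The test was checked on simulated counts. Summaries used Python 3.11.15, numpy 2.4.6, pandas 2.3.3 and matplotlib 3.10.9.

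The members and gene lists were chosen with earlier results of these data known. Named were all members, at most 6 called genes per list with the largest change, and all heat shock factors and other small heat shock proteins. Further genes of the heat-inducible chaperone list were named after their values were seen. Also named were the neighbours within 100 kb and genes with overlapping exons. The 5 non-member genes most like Cryab with a mean log2 CPM of at least 2 were named too. Alternatives were DESeq2 size factors, upper-quartile scaling, no filter, a mean count of at least 50, the DESeq2 1.42.0 Wald test, a replicate block, each library left out, and longest-transcript lengths. P-values measure the spread between libraries, and the floor covers counting error only. Of the listed genes, 2 are counted in their lists but not reported by name.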

Additional observations from a re-analysis of the deposited data

How the results depend on the processing

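Of 94 pairs of a tested member and an alternative, 91 kept direction and side of the threshold, 3 passed it and 0 reversed. Those 3 were Hspb2 with no filter (1.24), Hsf1 without miR-497 replicate 2 (0.22) and Hspb6 without miR-497 replicate 1 (-0.59), so members called lower ranged from 0 to 1 when each library was left out. Hspb2 and Hspb7 gave no value at a mean count of at least 50. The fold changes ranged from 2.34 to 2.46 for Cryab, 0.63 to 0.89 for Hspb1, 0.32 to 0.50 for Hspb8 and 0.43 to 0.52 for Bag3. Of the heat-inducible chaperones 3 to 6 were higher and 4 to 7 lower over all settings, with 6 higher under upper-quartile scaling. Scaling put the share of calls that were higher at 47.8% (TMM), 49.7% (DESeq2 size factors) or 53.9% (upper quartile). With the replicate block 3177 genes were higher and 3563 lower, with 4 members higher and 0 lower, and 4 chaperones higher and 5 lower. Same-numbered libraries did not deviate together (correlations -0.119, -0.0351 and -0.133), so the numbers were not taken as pairs. Longest-transcript lengths moved the RPKM of Cryab to 163 (NC) and 862 (miR-497). Depth limits Hspb2, Hspb3 and Hspb7, with at most 43 counts per library.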
